A study of Mus musculus with 6 samples.

Results

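Neutrophils mature through a fixed order of stages, and each stage transcribes its own set of granule proteins. Promyelocytes make the proteases and peroxidase of the primary (azurophil) granules, myelocytes and metamyelocytes make the antimicrobial proteins of the secondary (specific) granules, and the finished cells switch to genes such as Retnlg and Slpi. The transcripts present in a population of neutrophils therefore reflect the stages it holds, and in the spleen these can include cells made locally as well as cells that arrived from bone marrow. The genes described here are 33 markers of these stages, taken from a table of 55335 genes by symbol. Among them, 5 stand for the primary granule stage (Mpo, Elane, Prtn3, Ctsg and Ms4a3), 5 for the secondary granule stage (Ltf, Camp, Ngp, Lcn2 and Cebpe) and 5 for the mature stage (Retnlg, Asprv1, Wfdc21, G0s2 and Slpi). The other 18 are early regulators, further granule proteins and broad myeloid genes. All 33 passed the filter on low counts, as did 14849 of all genes.

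The libraries came from splenic CD11b+ cells that were sorted by flow cytometry from mice of WT genotype. The MI group had a myocardial infarction, and the MI+RDN group had a myocardial infarction with renal denervation (RDN, ablation of the nerves of the kidney), with 3 biological replicates each. Every mouse in both groups was therefore infarcted, and no uninjured group was analysed here. The labels do not give strain, sex, age, the time after infarction or whether a replicate was 1 spleen or a pool. Levels are CPM, counts scaled to a common library size with TMM factors (a trimmed mean that offsets differences in library composition). Library totals ran from 21663440 to 28013900 counts. Itgam, the gene of the sort marker CD11b, stood at 1087, 1301 and 1011 CPM in MI replicates 1 to 3 and at 1666, 1638 and 1489 CPM in MI+RDN. The marker of the sort was thus present in each library. It was higher in every MI+RDN library than in every MI library, as for 12.4% of all genes tested. By edgeR it did not pass (Benjamini-Hochberg adjusted p = 0.109), and the DESeq2 Wald test called it higher. The part of this difference in the results below was not tested. In bulk RNA, fewer cells of a type and less RNA per cell cannot be told apart.

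Much of the spread came from a single library. MI+RDN replicate 2 was the highest of the 6 libraries for 26 of the 33 genes, against 19.8% of all genes tested. MI replicate 3 was the lowest of the 6 for 25 of the 33, against 23.6% of all genes. Results that rest on MI+RDN replicate 2 are given with and without it. The 33 genes together took 3.36%, 3.24% and 2.71% of the counts in MI replicates 1 to 3, and 4.22%, 6.66% and 3.01% in MI+RDN replicates 1 to 3.

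The 3 stages differed in which libraries stood high. The summed level of the 5 primary granule genes was 75.9, 58.6 and 35.9 CPM in MI replicates 1 to 3 and 66.5, 389.6 and 64.4 CPM in MI+RDN replicates 1 to 3. The second MI+RDN library stood far above the rest, and the other MI+RDN libraries lay within the MI range. The summed level of the 5 secondary granule genes was 7707, 6784 and 3982 CPM in MI and 11226, 24920.2 and 4039 CPM in MI+RDN. Here replicates 1 and 2 of MI+RDN stood above every MI library, and replicate 3 next to the lowest. The summed level of the 5 mature genes was 1122, 1301 and 983 CPM in MI and 2164, 2374 and 2468 CPM in MI+RDN. For the mature genes the groups did not overlap, and the MI+RDN libraries lay close together.

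**Figure D1:**
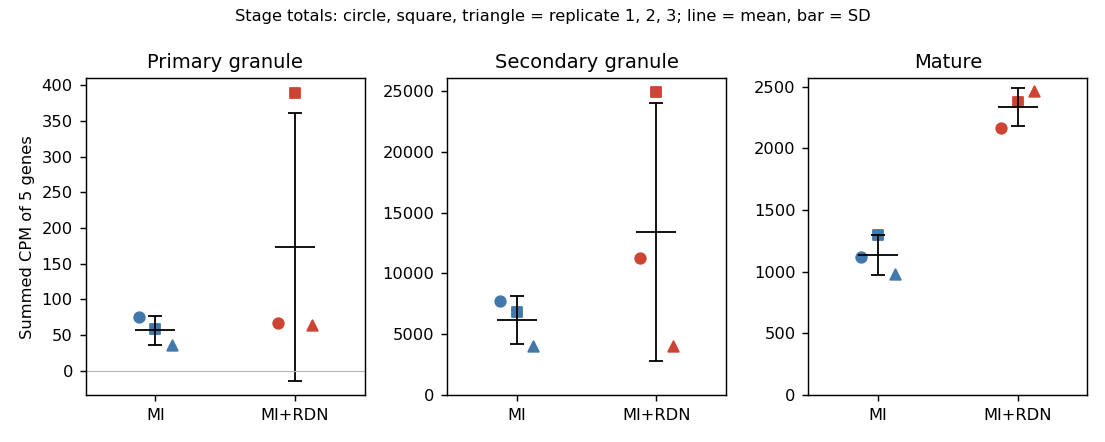
Summed CPM (vertical axis, linear) of the 5 genes of each stage, by group. Points are libraries, horizontal lines are means and bars are SD (n = 3). MI+RDN replicate 2 (square) stands at 389.6 CPM for the primary and 24920.2 CPM for the secondary granule genes, while the mature totals of the 3 MI+RDN libraries lie between 2164 and 2468 CPM, above all MI libraries.

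As group means, the primary total was 56.8 ± 20.1 CPM in MI and 173 ± 187 CPM in MI+RDN (SD, n = 3), a ratio of 3.05 that was 1.15 without MI+RDN replicate 2. The secondary total was 6158 ± 1940 CPM in MI and 13395 ± 10608 CPM in MI+RDN, a ratio of 2.18 that was 1.24 without that library. The mature total was 1135 ± 159 CPM in MI and 2335 ± 155 CPM in MI+RDN, a ratio of 2.06 that was 2.04 without it. For the first 2 stages the SD of MI+RDN was near or above its mean, and for the mature stage it was similar to the SD of MI. No test was run on these totals, because the genes were chosen with earlier results of these data known.

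Of the 33 genes, 4 rose in MI+RDN by edgeR's quasi-likelihood test with Benjamini-Hochberg adjustment over all genes, against 0.296% of all genes called higher. These were Retnlg and Asprv1 of the mature stage, and Pglyrp1 and Ceacam10 among the other genes. By the same edgeR test 0 fell, against 0.714% of all genes, with 0 lower at an unadjusted p under 0.05 (10.1% of all genes), 0 by the DESeq2 Wald test (4.07%) and 0 by limma-voom (0.552%). At an unadjusted p under 0.05, 16 were higher, against 9.83% of all genes. The groups did not overlap for 12 of the 33, all higher in MI+RDN, against 12.4% of all genes. The log2 fold change was positive for 32 of 33, against 51.0% of all genes, for 29 without scaling factors (G0s2, Chil3 and Lyz2 turned negative) and for 27 without MI+RDN replicate 2. Its median was 1.05 over the 33 and 0.0080 over all genes tested, and 0.41 over the 33 without that library. The count of 4 depended on the libraries and the tool. It was 3 without MI+RDN replicate 2 (Retnlg, Asprv1 and Ceacam10), 0 without any 1 of the other libraries (edgeR, with 11 to 27 higher at an unadjusted p under 0.05), and 11 by the DESeq2 Wald test, which called 3.78% of all genes higher. With limma-voom it was 2 (Retnlg and Asprv1), against 0.195% of all genes.

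**Figure D2:**
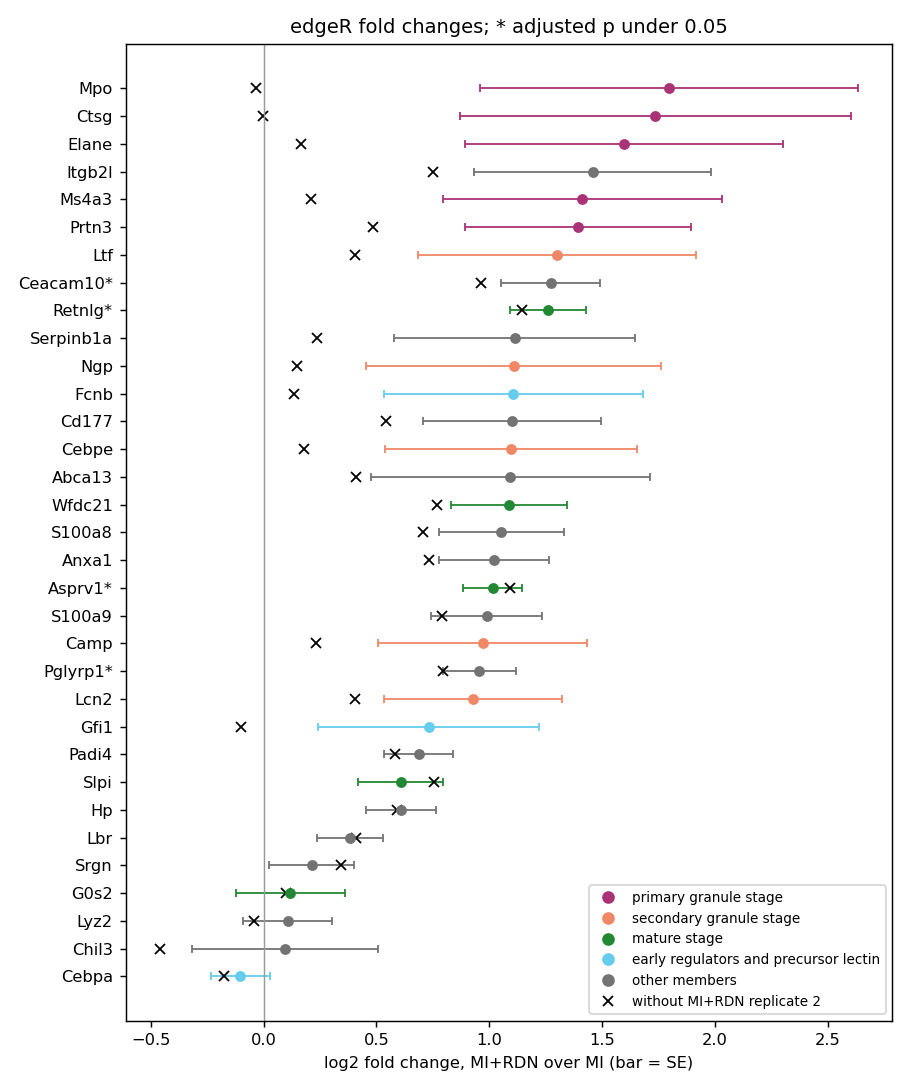
Log2 fold change, MI+RDN over MI, of the 33 genes from edgeR (horizontal axis, bar = SE), coloured by stage, with crosses for the same fit without MI+RDN replicate 2. Asterisks mark an adjusted p under 0.05. The primary and secondary granule genes have wide bars and crosses between -0.035 and 0.49, while Retnlg and Asprv1 keep crosses above 1.

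Primary granule genes encode the enzymes that neutrophils store first. Mpo is myeloperoxidase, which makes hypochlorous acid, Elane, Prtn3 and Ctsg are serine proteases (neutrophil elastase, proteinase 3 and cathepsin G), and Ms4a3 is a membrane protein of granulocyte and monocyte progenitors. Mpo stood at 29.8, 22.1 and 11.8 CPM in MI replicates 1 to 3 and at 19.6, 179 and 22.2 CPM in MI+RDN. Only MI+RDN replicate 2 lay outside the MI range. Elane had a like profile, with 15.5, 12.99 and 6.99 CPM in MI and 13.6, 80.1 and 13.2 CPM in MI+RDN. Prtn3 was the only gene of the stage whose groups did not overlap, at 18.7, 16.4 and 11.1 CPM in MI and 23.6, 77.7 and 20.1 CPM in MI+RDN. Its other MI+RDN libraries were just above the highest MI library.

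Ctsg had the fewest counts of the 5, with 35 to 564 counts per library, and stood at 4.52, 1.58 and 1.68 CPM in MI and 2.04, 20.6 and 3.18 CPM in MI+RDN. Ms4a3 stood at 7.37, 5.55 and 4.26 CPM in MI and 7.70, 32.2 and 5.72 CPM in MI+RDN. The second MI+RDN library was thus above every other library for all 5 genes, at 3.56 (Prtn3) to 8.56 (Mpo) times the mean of MI+RDN replicates 1 and 3. The fitted folds of 2.63 to 3.47 came with SEs of 0.50 to 0.87 on the log2 scale, and 0 of 5 passed (edgeR Benjamini-Hochberg adjusted p = 0.181 to 0.311). At an unadjusted p under 0.05 there was 1 of 5, Prtn3, against 9.83% of all genes higher. The DESeq2 Wald test and limma-voom each called 0. The median log2 fold change of the stage was 1.60, and 0.17 without MI+RDN replicate 2, where Mpo (-0.035) and Ctsg (-0.0018) turned negative.

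The promoters of Elane and Mpo are shown because Mpo had the widest gap between MI+RDN replicate 2 and its group, and Elane the highest level per length of the stage. Each run is the 250 bases before the RefSeq start on build GRCm38.p6, 5′ to 3′, Elane at chr10:79886062-79886311 (plus strand) and Mpo at chr11:87793534-87793783 (plus strand). Capitals mark matches, on either strand, to 3 short motifs of myeloid factors: TTNNGNAA for C/EBP, GAGGAA for PU.1 and TGTGGT for RUNX.
Elane: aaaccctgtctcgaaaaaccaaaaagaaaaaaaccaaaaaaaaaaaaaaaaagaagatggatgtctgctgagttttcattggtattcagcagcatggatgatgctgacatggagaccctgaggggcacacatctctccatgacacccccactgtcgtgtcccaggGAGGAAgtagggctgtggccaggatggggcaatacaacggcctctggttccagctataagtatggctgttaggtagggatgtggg
Mpo: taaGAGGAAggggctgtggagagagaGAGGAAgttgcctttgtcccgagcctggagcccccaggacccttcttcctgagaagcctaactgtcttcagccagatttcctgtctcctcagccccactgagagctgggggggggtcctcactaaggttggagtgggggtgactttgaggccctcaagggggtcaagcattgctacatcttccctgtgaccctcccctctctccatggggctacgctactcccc
Elane held 1 match to the PU.1 letters, 79 bases before the start, and Mpo held 2. Among the 5 primary granule promoters, 4 held GAGGAA and 1, that of Ms4a3, held TTNNGNAA. GAGGAA was found in 23.1% of 27025 RefSeq promoters of this length and TTNNGNAA in 36.9%. Elane and Prtn3 are neighbours on chromosome 10, with 0 protein-coding genes between them in the RefSeq annotation.

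Early regulators and the precursor lectin differed among themselves. Cebpa encodes the transcription factor that commits progenitors to the granulocyte line, Gfi1 a repressor needed for granulocyte differentiation, and Fcnb a ficolin, a lectin made by neutrophil precursors. Fcnb resembled the granule genes, at 39.8, 37.2 and 22.9 CPM in MI and 51.7, 140.8 and 22.5 CPM in MI+RDN. Its MI+RDN libraries included both the highest and the lowest of the 6. Gfi1 stood at 6.90, 4.28 and 3.92 CPM in MI and 5.12, 15.5 and 4.38 CPM in MI+RDN. Again MI+RDN replicate 2 alone was above the MI range. Cebpa stood at 94.8, 111 and 83.3 CPM in MI and 78.9, 96.8 and 93.7 CPM in MI+RDN, with overlapping groups, and was the only one of the 33 with a negative fold change (log2 -0.10, SE 0.13). Of these 3 genes, 0 passed by edgeR (Benjamini-Hochberg adjusted p = 0.327 to 0.697), 0 at an unadjusted p under 0.05, and 0 by the DESeq2 Wald test and limma-voom.

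Secondary granule genes were split within MI+RDN, with high levels in replicates 1 and 2 and a low level in replicate 3. Ltf encodes lactoferrin, an iron-binding antimicrobial protein, and stood at 2170.5, 1855 and 1076 CPM in MI replicates 1 to 3 and at 3490.3, 7975 and 1105 CPM in MI+RDN. Replicates 1 and 2 of MI+RDN were above every MI library, and replicate 3 was near the lowest MI library. Ngp, neutrophilic granule protein of the cystatin and cathelicidin group, stood at 3473, 3071 and 1639.8 CPM in MI and 4784, 11481 and 1385 CPM in MI+RDN. For Ngp, MI+RDN held both the highest and the lowest library. Camp encodes cathelicidin, an antimicrobial peptide precursor, and stood at 557, 482 and 369.7 CPM in MI and 750.2, 1639.6 and 370.4 CPM in MI+RDN.

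Lcn2, or lipocalin 2, which binds bacterial siderophores, stood at 1480, 1356 and 883 CPM in MI and 2169, 3742 and 1164 CPM in MI+RDN. Cebpe encodes the transcription factor that drives secondary granule genes and stood lower, at 26.03, 20.4 and 14.2 CPM in MI and 32.3, 82.9 and 14.1 CPM in MI+RDN. In all 5 genes MI+RDN replicate 1 and replicate 2 were above the highest MI library, against 35.2% and 31.1% of all genes tested, and replicate 3 was above it in 0 of 5, against 30.4%. Fitted folds were 1.90 to 2.46, and 0 of 5 passed by edgeR (Benjamini-Hochberg adjusted p = 0.244 to 0.384). At an unadjusted p under 0.05 there was 1 of 5, Lcn2, against 9.83% of all genes higher. The DESeq2 Wald test and limma-voom each called 0. The median log2 fold change was 1.10, and 0.23 without MI+RDN replicate 2.

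The promoters of Ltf and Ngp are printed as the secondary granule genes with the largest fold and the highest CPM. Ltf lies at chr9:111019042-111019291 and Ngp at chr9:110419558-110419807, both on the plus strand of GRCm38.p6, with capitals as for Elane and Mpo.
Ltf: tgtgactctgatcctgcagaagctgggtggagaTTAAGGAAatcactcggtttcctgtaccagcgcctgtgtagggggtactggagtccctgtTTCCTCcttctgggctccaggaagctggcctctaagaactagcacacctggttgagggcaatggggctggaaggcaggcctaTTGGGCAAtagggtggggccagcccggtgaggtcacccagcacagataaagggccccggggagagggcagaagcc
Ngp: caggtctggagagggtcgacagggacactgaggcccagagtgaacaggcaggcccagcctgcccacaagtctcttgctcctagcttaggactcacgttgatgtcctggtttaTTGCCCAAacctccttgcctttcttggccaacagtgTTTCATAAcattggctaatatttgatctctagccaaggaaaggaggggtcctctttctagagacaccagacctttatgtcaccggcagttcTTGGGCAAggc
Ltf held 2 matches to the C/EBP letters and 1 to the PU.1 letters, and Ngp held 3 to C/EBP, the nearest ending 3 bases before the start. Of the 4 secondary granule promoters in the table (Cebpe has none there), 3 held TTNNGNAA and 2 held GAGGAA, and that of Camp held none of the 3 motifs. Across the 29 members with a promoter, 51.7% held TTNNGNAA, against 36.9% of all promoters, and 41.4% held GAGGAA, against 23.1%. TGTGGT was in 13.8% of them and 14.2% of all. Ltf, Camp and Ngp all lie on chromosome 9, with 8 protein-coding genes between Camp and Ngp and 20 between Ngp and Ltf.

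Mature genes gave the most even difference between the groups. Retnlg, a resistin-like protein secreted by neutrophils, stood at 532, 633 and 472 CPM in MI replicates 1 to 3 and at 1070.5, 1485 and 1365 CPM in MI+RDN. All MI+RDN libraries were above all MI libraries, and MI+RDN replicate 2 was 1.22 times the mean of the other MI+RDN libraries. Its log2 fold change was 1.26 (SE 0.17, edgeR Benjamini-Hochberg adjusted p = 0.0316), and 1.14 without MI+RDN replicate 2 (adjusted p = 0.0481). Asprv1, an aspartic protease first known from skin and present in neutrophils, stood at 255, 266 and 213 CPM in MI and 541, 427 and 516 CPM in MI+RDN. Here MI+RDN replicate 2 was the lowest of its group, and the groups still did not overlap. Its log2 fold change was 1.01 (SE 0.13, edgeR Benjamini-Hochberg adjusted p = 0.0316), and 1.09 without that library (adjusted p = 0.0312). Without any 1 of the other libraries, Retnlg and Asprv1 did not pass, with adjusted p up to 0.120 and 0.113 and log2 fold changes of at least 1.14 and 0.92.

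Wfdc21, a small secreted protein with a whey acidic protein domain, stood at 41.2, 41.0 and 25.9 CPM in MI and 64.8, 105 and 59.4 CPM in MI+RDN. The groups did not overlap, and it did not pass by edgeR (Benjamini-Hochberg adjusted p = 0.0792). Slpi, which inhibits neutrophil elastase and cathepsin G, stood at 269.95, 332 and 234 CPM in MI and 445, 325 and 505 CPM in MI+RDN. For Slpi the second MI+RDN library lay within the MI range, while for the proteases it lay far above it. The adjusted p of Slpi was 0.137 (edgeR, Benjamini-Hochberg). G0s2, an inhibitor of triglyceride breakdown, stood at 23.8, 29.4 and 37.1 CPM in MI and 42.5, 32.6 and 22.9 CPM in MI+RDN. Both the highest and the lowest of the 6 libraries were MI+RDN, and the fold was 1.09 (adjusted p = 0.820). The stage thus had 2 of 5 genes past the edgeR threshold (0.296% of all genes higher), 3 of 5 with separate groups (12.4% of all genes) and 4 of 5 called higher by the DESeq2 Wald test (3.78% of all genes). Its median log2 fold change was 1.01, and 0.77 when MI+RDN replicate 2 was left out.

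The promoters of Retnlg and Asprv1 are shown as those of the 2 mature genes that passed. Retnlg lies at chr16:48872358-48872607 and Asprv1 at chr6:86627924-86628173, both on the plus strand of GRCm38.p6, with the same 3 motifs in capitals.
Retnlg: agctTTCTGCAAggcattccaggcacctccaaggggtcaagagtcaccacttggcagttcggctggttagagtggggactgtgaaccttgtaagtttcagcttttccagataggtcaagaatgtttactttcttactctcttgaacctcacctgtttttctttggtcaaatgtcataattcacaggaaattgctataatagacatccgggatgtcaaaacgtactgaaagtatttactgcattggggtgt
Asprv1: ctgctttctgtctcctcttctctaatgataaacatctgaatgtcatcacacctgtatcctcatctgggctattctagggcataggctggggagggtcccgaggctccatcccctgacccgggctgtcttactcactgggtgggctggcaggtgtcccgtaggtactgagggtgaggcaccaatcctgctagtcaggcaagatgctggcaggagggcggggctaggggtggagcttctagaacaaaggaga
Retnlg held 1 match to the C/EBP letters, 238 bases before the start, and Asprv1 held none of the 3 motifs. Of the 4 mature promoters in the table (Wfdc21 has none there), 2 held TTNNGNAA and 0 held GAGGAA. No match says only that these letters are not in this window.

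**Figure D3:**
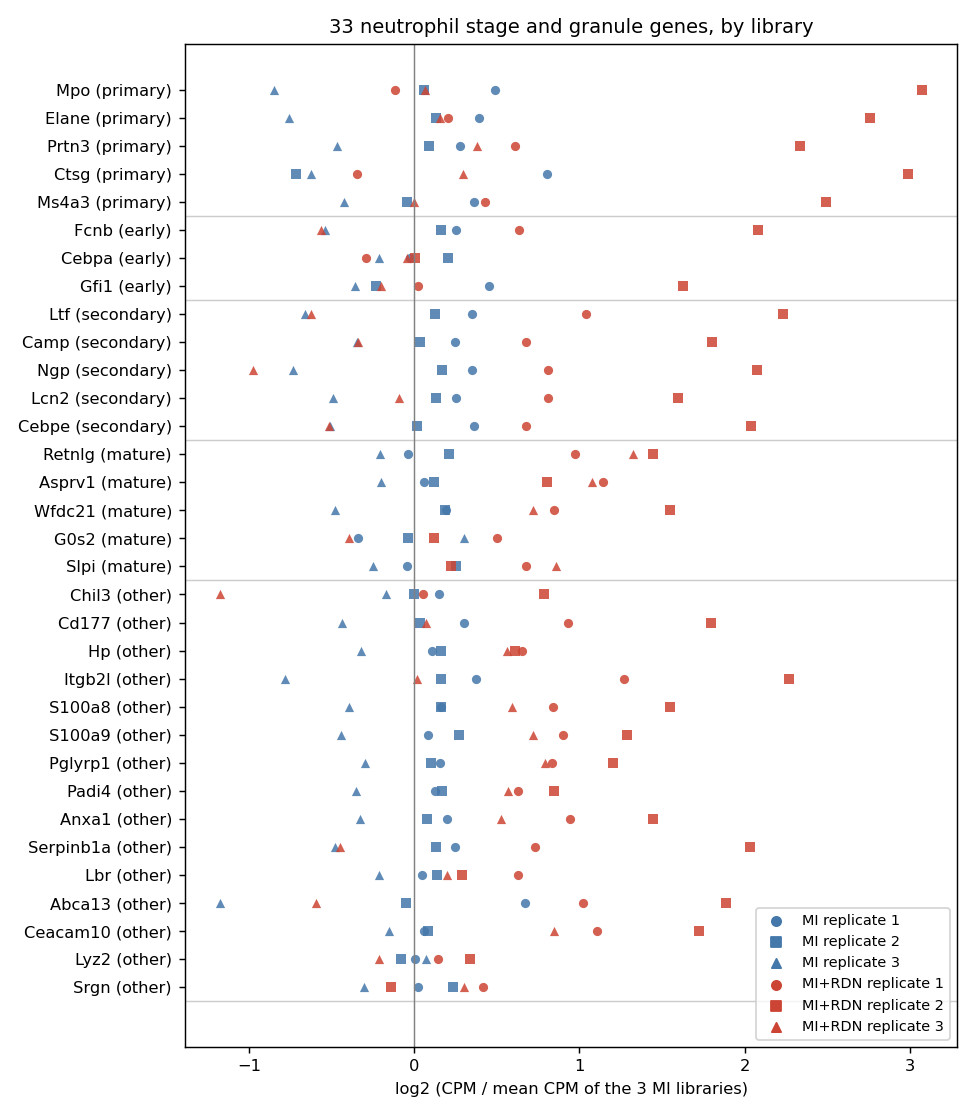
Level of each of the 33 genes in each library as log2 of its CPM over the mean CPM of the 3 MI libraries (horizontal axis). Blue is MI and red is MI+RDN, with circle, square and triangle for replicates 1, 2 and 3. Red squares lie far to the right for primary and secondary granule genes, from Mpo at 179 CPM to Camp at 1639.6 CPM, and sit among the other red points for Retnlg, Asprv1 and Hp.

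The balance of stages within a library, which does not depend on how the library was scaled, varied most inside MI+RDN. The ratio of the secondary total to the mature total was 6.87, 5.22 and 4.05 in MI replicates 1 to 3 and 5.19, 10.5 and 1.64 in MI+RDN. Replicates 2 and 3 of MI+RDN were the extremes of the 6, on opposite sides of MI, while replicate 1 lay within the MI range. The ratio of the primary total to the mature total was 0.0676, 0.0451 and 0.0365 in MI and 0.0307, 0.164 and 0.0261 in MI+RDN. Here MI+RDN replicates 1 and 3 were below every MI library and replicate 2 was above. The 3 MI+RDN libraries therefore shared a high total of these 5 mature genes and had different granule totals. The ratio of sums is set by the most abundant genes, Ngp and Ltf for the secondary and Retnlg for the mature stage.

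**Figure D4:**
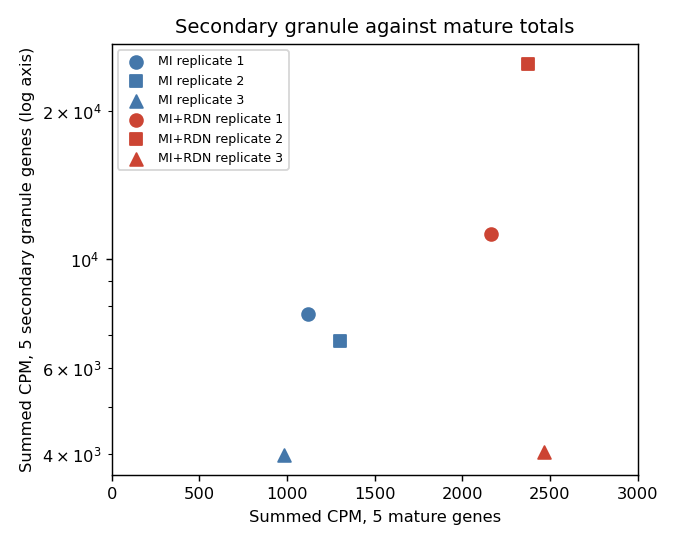
Summed CPM of the 5 secondary granule genes (vertical, log axis) against that of the 5 mature genes (horizontal, linear), 1 point per library. The 3 MI libraries lie at mature totals of 983 to 1301 CPM and the 3 MI+RDN libraries at 2164 to 2468 CPM, and the latter spread from 4039 to 24920.2 CPM in secondary granule total.

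Among the remaining genes, several secondary granule and late precursor genes had the same profile as Ltf. Cd177, a neutrophil surface glycoprotein, stood at 444, 369 and 266 CPM in MI and 687, 1249 and 378 CPM in MI+RDN. Itgb2l, an integrin beta chain of neutrophils, stood at 83.2, 71.8 and 37.4 CPM in MI and 154.5, 309 and 64.8 CPM in MI+RDN. In both genes MI+RDN replicate 3 fell back into the MI range. Serpinb1a, an intracellular inhibitor of the granule serine proteases, stood at 83.8, 77.3 and 50.6 CPM in MI and 117, 289 and 51.7 CPM in MI+RDN. Abca13, a large ABC transporter, stood at 35.1, 21.3 and 9.75 CPM in MI and 44.7, 81.5 and 14.6 CPM in MI+RDN. None of these 4 passed by edgeR (Benjamini-Hochberg adjusted p = 0.181 to 0.365), with Cd177 and Itgb2l at an unadjusted p under 0.05 and 0 called by the DESeq2 Wald test or limma-voom. Chil3, a chitinase-like secreted lectin also made by macrophages and monocytes, stood at 2281, 2053 and 1826 CPM in MI and 2135, 3536 and 909 CPM in MI+RDN, with a fold of 1.07 (adjusted p = 0.921).

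A second set of genes resembled the mature stage, with all MI+RDN libraries above all MI libraries. Pglyrp1, a peptidoglycan recognition protein stored in granules, stood at 235, 226 and 171 CPM in MI and 375, 485 and 364 CPM in MI+RDN. It rose with a log2 fold change of 0.96 (SE 0.16, edgeR Benjamini-Hochberg adjusted p = 0.0462), which was 0.80 without MI+RDN replicate 2 (adjusted p = 0.0629). Ceacam10, a secreted member of the carcinoembryonic antigen family, stood at 14.99, 15.3 and 12.97 CPM in MI and 31.0, 47.5 and 25.9 CPM in MI+RDN. With reads that close paralogs may share, it rose by a log2 fold change of 1.27 (SE 0.22, edgeR Benjamini-Hochberg adjusted p = 0.0495), and by 0.96 without MI+RDN replicate 2 (adjusted p = 0.0470). Both lost the call without any 1 of the other libraries, with adjusted p from 0.0512 to 0.174. Ceacam10 is the neighbour of Cd177 on chromosome 7, with 0 protein-coding genes between them.

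S100a8 and S100a9 encode the subunits of calprotectin, the most abundant protein of the neutrophil cytosol, and are neighbours on chromosome 3. S100a8 stood at 1847, 1853 and 1257 CPM in MI and 2964, 4841 and 2491 CPM in MI+RDN, and S100a9 at 5207, 5912 and 3604 CPM in MI and 9148, 12004 and 8062 CPM in MI+RDN. In neither gene did the groups overlap, and neither passed (edgeR Benjamini-Hochberg adjusted p = 0.0989 and 0.0888). Hp, or haptoglobin, which binds free haemoglobin and is stored in granules, was nearly level within MI+RDN, at 2163, 2104 and 2038 CPM against 1486, 1545 and 1105 CPM in MI (adjusted p = 0.0946). Padi4, the enzyme that citrullinates histones in extracellular trap formation, stood at 179, 185 and 129 CPM in MI and 254, 295 and 244 CPM in MI+RDN (adjusted p = 0.0717). For both, every MI+RDN library was above every MI library. Anxa1, the annexin that limits neutrophil recruitment, stood at 819, 755 and 569 CPM in MI and 1374, 1948 and 1029 CPM in MI+RDN (adjusted p = 0.0810). Lbr, the lamin B receptor that shapes the lobed nucleus, stood at 300.5, 320 and 250.3 CPM in MI and 448, 355 and 333 CPM in MI+RDN (adjusted p = 0.201). The DESeq2 Wald test called S100a8, S100a9, Hp, Padi4 and Anxa1 higher but not Lbr.

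The broad myeloid genes Lyz2 and Srgn had overlapping groups. Lyz2, the lysozyme of neutrophils, monocytes and macrophages, stood at 9382, 8837 and 9813 CPM in MI and 10329.7, 11818 and 8062 CPM in MI+RDN, with a fold of 1.08 (edgeR Benjamini-Hochberg adjusted p = 0.80). Srgn, the proteoglycan that packs granule contents in many blood cells, stood at 949, 1098 and 757 CPM in MI and 1248, 849 and 1153 CPM in MI+RDN, with a fold of 1.16 (adjusted p = 0.571). Per kilobase of merged exons, the mean levels over the 6 libraries ran from 1.75 CPM for Abca13 to 14028 CPM for S100a9. On that scale the primary granule genes lay at 5.42 to 24.1, the secondary granule genes from 25.5 (Cebpe) to 3523 (Ngp), and the mature genes from 36.0 (G0s2) to 1562 (Retnlg). As a share of all counts, the 5 primary granule genes took 0.00389% to 0.0381% of a library, the 5 mature genes 0.107% to 0.233% and the 5 secondary granule genes 0.381% to 2.43%.

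Over all 33 genes, MI+RDN replicate 2 was more than 2 times the mean of MI+RDN replicates 1 and 3 for 17, as in 3.87% of all genes, and below that mean for 5. The ratio had a median of 5.97 over the primary, 3.47 over the secondary and 0.998 over the mature stage, and 0.9997 over all genes. The genes ran from Mpo at 8.56 to Slpi at 0.684, and the stages overlapped where Prtn3 (3.56) lay below Ngp (3.72) and Cebpe (3.57). This pattern was noticed in these libraries and rests on a single library, so it has no test.

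Lists of other neutrophil genes were read beside the stages. Gelatinase and secretory granule genes, made between the secondary and the mature stage, had positive log2 fold changes in 10 of 11 tested members, with a median of 0.50 and separate groups, higher in MI+RDN, in 7, against 12.4% of all genes. By edgeR 0 of 11 passed, with 7 higher at an unadjusted p under 0.05 (9.83% of all genes), 6 called higher by the DESeq2 Wald test (3.78%) and 0 by limma-voom. Mmp8, the neutrophil collagenase, stood at 555, 538 and 384 CPM in MI and 911, 1212 and 854 CPM in MI+RDN (edgeR Benjamini-Hochberg adjusted p = 0.0539). Mmp25, a membrane metalloproteinase of neutrophils, stood at 74.4, 72.6 and 50.7 CPM in MI and 159, 198 and 108 CPM in MI+RDN (adjusted p = 0.0539). Mmp9, or gelatinase B, stood at 1215, 1431 and 1120 CPM in MI and 2087, 1881 and 1835 CPM in MI+RDN (adjusted p = 0.0717), and as for Hp its MI+RDN libraries lay close together. Surface receptors and late genes summed to 15326.5, 16478 and 11112 CPM in MI and 21110, 14455 and 21564.5 CPM in MI+RDN. By this sum MI+RDN replicate 2 lay within the MI range, and by mean log2 CPM (8.54) just above it (7.82 to 8.41). Their log2 fold changes were positive in 20 of 20, with a median of 0.44 and 1 past the threshold (0.296% of all genes higher). That gene was Ly6g, the surface antigen that defines mouse neutrophils, at 50.1, 49.0 and 31.5 CPM in MI and 107, 171 and 103 CPM in MI+RDN (edgeR Benjamini-Hochberg adjusted p = 0.0425). Ly6g was also called without MI+RDN replicate 2 (adjusted p = 0.0481) and lost the call without any 1 of the other libraries (adjusted p = 0.0575 to 0.132).

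Among other genes of primary granules and their assembly, the log2 fold change had a median of 0.098. Of 11, 0 passed by edgeR, and 0 were called by the DESeq2 Wald test and limma-voom. At an unadjusted p under 0.05, 1 was higher (Cd63, a granule membrane tetraspanin), against 9.83% of all genes. Cd63 stood at 32.2, 24.1 and 22.4 CPM in MI and 40.5, 61.0 and 26.05 CPM in MI+RDN. Bpi had 0 counts in all libraries. Granulocytic transcription factors beyond Cebpa, Gfi1 and Cebpe had a median of 0.099 over 14 genes, 9 positive and 5 negative. By edgeR 0 passed in either direction, with 3 higher and 2 lower at an unadjusted p under 0.05 (9.83% and 10.1% of all genes). The DESeq2 Wald test called 2 higher (Rfx2 and Cebpd) and 2 lower (Irf8 and Sox4), against 3.78% and 4.07% of all genes. Irf8, a factor that favours monocytes and dendritic cells over neutrophils, stood at 186, 189 and 229 CPM in MI and 152, 142 and 149 CPM in MI+RDN (edgeR Benjamini-Hochberg adjusted p = 0.0783). Sox4, a progenitor factor, stood at 2.73, 3.11 and 6.65 CPM in MI and 1.08, 0.80 and 1.29 CPM in MI+RDN (adjusted p = 0.0628). For both, every MI+RDN library was below every MI library, and MI+RDN replicate 2 was the lowest of the 6.

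Proliferation genes, which dividing precursors express and mature neutrophils do not, had the same outlying library as the primary granule genes. The highest of the 6 libraries was MI+RDN replicate 2 for 18 of 18, against 19.8% of all genes. Their summed level was 1177, 1149 and 972 CPM in MI and 1340.0, 2295 and 1146 CPM in MI+RDN, and only MI+RDN replicate 2 stood clear of the rest. Hmgb2, a chromatin protein, stood at 424, 422 and 357 CPM in MI and 579, 777 and 507 CPM in MI+RDN (edgeR Benjamini-Hochberg adjusted p = 0.103). Its groups did not overlap. Nor did those of Cks2, at 25.3, 29.0 and 28.7 CPM in MI and 37.6, 37.7 and 33.7 CPM in MI+RDN (adjusted p = 0.0991). By edgeR 0 of 18 passed, with 2 higher at an unadjusted p under 0.05 (9.83% of all genes). The DESeq2 Wald test called 2 higher (3.78% of all genes) and limma-voom 0. The part of dividing cells in the primary granule result was not tested. Among 9 stem and progenitor markers, 6 had negative and 3 positive fold changes, and their mean log2 CPM overlapped between the groups, at 1.70 to 2.25 in MI and 1.67 to 2.26 in MI+RDN. Kit fell to 26.9 ± 1.98 CPM from 44.4 ± 5.85 (SD, n = 3, edgeR Benjamini-Hochberg adjusted p = 0.0462), and lost the call without any 1 library (adjusted p = 0.0603 to 0.149). Kit is also carried by mast cells. Cd34, a defining marker of progenitors, was at 0.77 to 1.46 CPM in all libraries, and Cpa3, a mast cell marker, at 0.26 to 3.62 CPM. Flt3 of the same list was lower in every MI+RDN library (log2 fold change -0.85, edgeR Benjamini-Hochberg adjusted p = 0.0511). The DESeq2 Wald test called Kit and Flt3 lower (4.07% of all genes). Which cells carried the Kit difference was not tested.

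**Figure D5:**
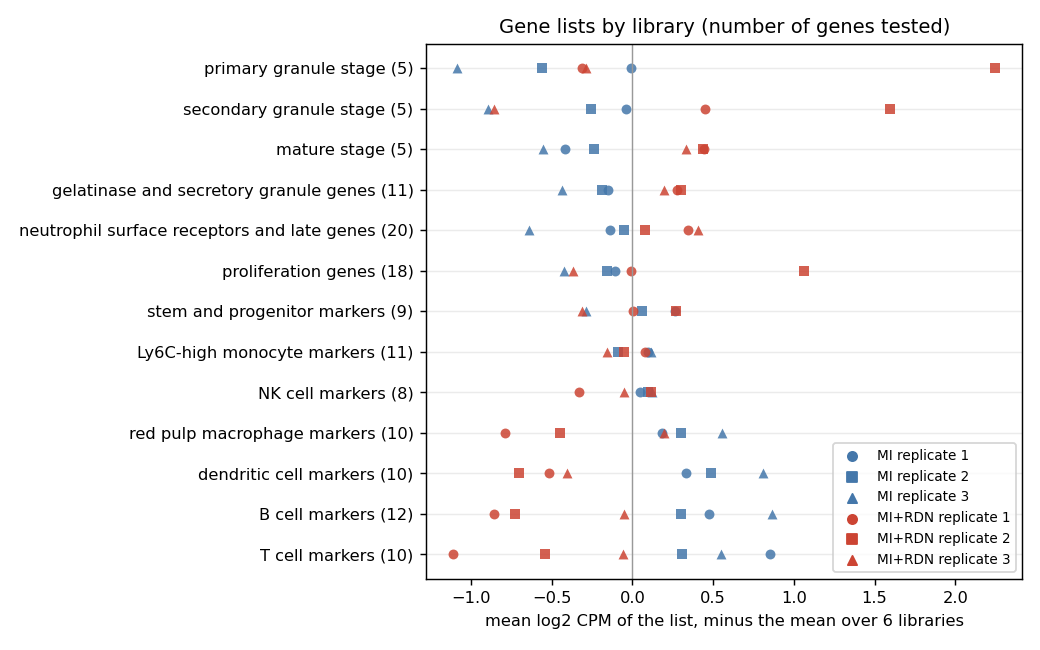
Mean log2 CPM of each gene list in each library, minus its mean over the 6 libraries (horizontal axis), with the number of genes tested in brackets. Blue is MI and red is MI+RDN, with circle, square and triangle for replicates 1, 2 and 3. MI+RDN replicate 2 stands at 2.25 for the primary granule, 1.60 for the secondary granule and 1.06 for the proliferation genes, while B cell, T cell and dendritic cell markers are lower in all MI+RDN libraries than in all MI libraries.

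Markers of some other cell types differed between the groups as well. The 12 B cell markers summed to 646 to 941 CPM in MI and 337 to 529 CPM in MI+RDN, the 10 T cell markers to 75.9 to 107 and 32.7 to 59.6 CPM, and the 10 dendritic cell markers to 1779 to 2504 and 1059 to 1202 CPM. None of these ranges overlapped between the groups. By edgeR 0 B cell, 1 T cell (Cd3d) and 5 dendritic cell markers (Ciita, Zbtb46, Cd209a, Clec10a and H2-Ab1) fell, against 0.714% of all genes. At an unadjusted p under 0.05, 12, 9 and 10 were lower (10.1% of all genes), and the DESeq2 Wald test called 11, 7 and 9 lower (4.07% of all genes). Each of the 6 lost the edgeR call without at least 1 library. Ly6C-high monocyte markers, which come from cells that share Lyz2, Chil3 and S100a8 with neutrophils, summed to 6056 to 7303 CPM in MI and 5678 to 6709 CPM in MI+RDN, and these ranges overlapped. Of 11, 1 rose by edgeR, against 0.296% of all genes, and 0 fell. It was Ly6c2, which lost the call without any 1 library. Fold changes were positive for 2, against 51.0% of all genes, and negative for 9. At an unadjusted p under 0.05, 2 were higher and 2 lower (9.83% and 10.1% of all genes). The DESeq2 Wald test called 2 higher (Ly6c2 and Cd14, 3.78% of all genes) and 1 lower (Cx3cr1, 4.07%). Erythroid markers summed to 388 to 777 CPM in MI and 173 to 245 CPM in MI+RDN. Of 8, edgeR called 0 lower (0.714% of all genes) and the DESeq2 Wald test 5 (4.07%). The sums overlapped for NK cell markers (232 to 246 CPM in MI, 178 to 252 in MI+RDN). They also overlapped for red pulp macrophage markers (1269 to 1423 and 1014 to 1405 CPM). By edgeR 0 of these 8 and 10 markers passed, and the DESeq2 Wald test called 1 and 3 lower. The part of these cell markers in the results for the 33 genes was not tested. The library that stood apart for the granule genes, MI+RDN replicate 2, had sums of 337, 46.7, 1059 and 6149 CPM for B cell, T cell, dendritic cell and monocyte markers.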

How the data were processed

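RNA sequencing of 6 libraries of sorted splenic CD11b+ cells was used. Per the submitters' processing notes, FastQC 0.11.2, STAR and the build GRCm39 were used, and per the labels' protocols the TruSeq libraries are strand-specific. How reads were counted (tool, annotation release, strand, several matches) is not given in the sources used here, so genes with close paralogs (Lyz2, Chil3, Serpinb1a, Ceacam10) are uncertain. The authors deposited whole-number counts per Ensembl gene, with no normalisation. Symbols for 55154 of 55335 IDs and merged exon lengths came from GENCODE M21 (GRCm38).

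In R 4.3.3 with edgeR 4.0.16, filterByExpr kept 14849 genes, TMM factors scaled the libraries, and a quasi-likelihood F test of MI+RDN against MI was run over all genes (Benjamini-Hochberg, 0.05, no covariates). SE was taken as |log2 fold change| divided by the root of F. The common biological coefficient of variation was 20.7%. P-values measure the spread between these 6 libraries. Log2 CPM used a prior count of 2. Alternatives were other scaling (including TMM without the 33 genes), other filters, DESeq2 1.42.0, limma-voom (limma 3.58.1), the replicate number as a block and each library left out. The members and gene lists were chosen with earlier results of these data known. Every member is named, and from other lists the passing genes or up to 3 with the lowest p. The test was also run on 3 simulated sets with 200 changed genes each. It recovered 64.5% of 2-fold and 91.3% of 4-fold changes, and 6.58% of its calls were false. Promoters are the first listed per gene in RefSeq (GRCm38.p6) and were matched by symbol for 29 of 33 members, without Cebpe, Wfdc21, Hp and Serpinb1a. Motif matches of C/EBP overlapped no other motif in them. Figures used matplotlib 3.10.9.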

Additional observations from a re-analysis of the deposited data

How the results depend on the processing

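Genes called over the whole table numbered 150, and 475 without scaling factors, 21 without a filter, 290 at a mean of at least 5 CPM, 1165 by the DESeq2 Wald test and 87 with the replicate block. Leaving out 1 library gave 0 to 67. The count was 0 (edgeR) when MI replicate 3 was left out (2084 genes at an unadjusted p under 0.05) or MI+RDN replicate 1 (2323 such genes). Members called higher numbered 4, and 2 with DESeq2 size factors, 0 without a filter (edgeR, 16 at an unadjusted p under 0.05), 11 by the DESeq2 Wald test, 2 by limma-voom, 2 with the replicate block and 0 to 3 with 1 library left out. Without a filter more genes entered the adjustment, and Retnlg and Asprv1 stood at adjusted p = 0.053. The cause of these changes, with or without a filter, was not tested. The median log2 fold change with 1 library left out ran from 0.17 to 1.99 for the primary, 0.23 to 1.51 for the secondary and 0.77 to 1.08 for the mature stage, and the mature median was 0.88 without scaling factors, where the median of all genes moved to -0.13. Without scaling factors G0s2 (-0.024), Chil3 (-0.030) and Lyz2 (-0.028) turned negative, and Chil3 also by limma-voom (-0.12) and with the replicate block (-0.11). With 1 library left out, log2 fold changes crossed 0 for Mpo (-0.035 to 2.25), Ctsg (-0.0018 to 2.40), Gfi1 (-0.099 to 1.03), Chil3 (-0.46 to 0.45), Lyz2 (-0.042 to 0.23), G0s2 (-0.11 to 0.30) and Cebpa (-0.20 to 0.014). Across genes, the deviations of same-numbered libraries had correlations of 0.018, -0.065 and 0.064. Among the members, MI replicate 3 was the lowest MI library for 30, against 37.5% of all genes. MI+RDN replicate 3 was the lowest MI+RDN library for 26 members, against 34.3% of all genes. Whether same-numbered libraries were handled together was not tested. With the block, Retnlg and Ceacam10 passed and Asprv1 and Pglyrp1 did not. Ctsg, with 35 counts in its lowest library, is limited most by depth.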

Other observations

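Basophil and mast cell markers, of another granulocyte lineage, varied widely within both groups. The 5 measured markers summed to 38.7, 16.7 and 10.01 CPM in MI replicates 1 to 3 and to 14.0, 38.4 and 2.32 CPM in MI+RDN. By edgeR 0 of 5 passed (1.01% of all genes in either direction), and 0 by the DESeq2 Wald test and limma-voom. At an unadjusted p under 0.05 there were 0, against 9.83% of all genes higher and 10.1% lower. The 4 measured eosinophil markers summed to 44.9 to 57.0 CPM over the 6 libraries, with 2 positive and 2 negative log2 fold changes. By edgeR 0 of 4 passed, against 1.01% of all genes in either direction. At an unadjusted p under 0.05, 1 was lower and 0 higher (10.1% and 9.83% of all genes). The DESeq2 Wald test called 0 (4.07% of all genes lower and 3.78% higher), and so did limma-voom (0.552% and 0.195%).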
